A study of Mus musculus with 9 samples.

Results

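Cxcl12, Cxcl14, Cxcr4 and Ackr3 encode a pair of secreted chemokines and the receptors of the CXCL12 pathway, and they are 4 of the 43548 gene identifiers measured in tissue of the developing mouse skull. They were picked from earlier results of the same libraries, from the differences between the groups compared here, so their levels and differences are given as a description with no p-value, and no count of calls that includes them, in any comparison, is support for a difference. Tissue was taken at E14.5 (embryonic day), early in the development of the cranial bones. The 3 groups were the skull vault of control embryos, the skull vault of MCAGF8 embryos, and the cranial base cartilage of control embryos, with 3 RNA-seq libraries in each. MCAGF8 embryos carried Msx2-Cre together with CAGF8, a Rosa26 allele from which the CAG promoter drives Fgf8b once Cre has removed a stop cassette. Msx2-Cre acts in the surface ectoderm, so the transgene was switched on in cells overlying the vault rather than in the mesenchyme itself. The methods describe the CAGF8 parent as homozygous, so control embryos would also carry the unrecombined allele, although the labels call them wildtype. The labelled strain was mixed. For the vault, the skin was peeled away and the layer down to the brain was kept, and each library was made from a pool of 3 tissue samples. The methods describe the cranial base as taken from the control embryos once their vault had been collected and the brain removed. Which embryos went into each pool is not stated, so vault and base libraries of controls may share embryos. The main comparisons treat the libraries as independent. Spread between libraries here is spread between pools.

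CXCL12 is a chemokine made by stromal cells, among them meningeal and bone marrow stromal cells, and it guides the migration of neural, blood-forming and endothelial cells. CXCR4 is the G protein-coupled receptor through which CXCL12 signals. ACKR3 (also called CXCR7) binds CXCL12 but does not couple to G proteins in the classical way, and it takes up the ligand and removes it from the tissue. CXCL14 is a homeostatic chemokine known from skin and other epithelia and from fibroblasts. It has been described as a binding partner of CXCR4, but its signaling receptor is less settled than that of CXCL12.

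On the GRCm38 assembly with GENCODE M21 gene models, Cxcl12 (ENSMUSG00000061353) lies on the plus strand of chromosome 6 from 117168535 to 117181367. Cxcl14 (ENSMUSG00000021508) lies on the minus strand of chromosome 13 from 56288643 to 56296551. The receptor genes share chromosome 1, with Cxcr4 (ENSMUSG00000045382) on the minus strand from 128588199 to 128592293 and Ackr3 (ENSMUSG00000044337) on the plus strand from 90203980 to 90216751. None of them overlapped another annotated gene (0 overlaps each). Cxcl12 has 3 protein-coding transcripts and the other genes 2 each, and the gene-level values do not separate them.

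The proximal promoters are shown because both receptor genes were lower in MCAGF8 vault than in control vault and neither ligand gene was. Each is the stretch of 150 bases that ends just before the RefSeq start (GRCm38.p6), written 5′ to 3′ on the strand of the gene. Capitals mark matches on either strand to TATAAA, the core of a TATA box, or to GGGCGG, the core of a GC box, where adjoining or overlapping matches run together.

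Cxcl12, chr6:117168385-117168534, plus strand: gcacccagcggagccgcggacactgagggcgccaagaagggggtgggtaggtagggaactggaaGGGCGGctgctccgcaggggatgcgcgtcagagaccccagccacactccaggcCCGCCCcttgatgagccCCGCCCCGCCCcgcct
Cxcl14, chr13:56296552-56296701, minus strand: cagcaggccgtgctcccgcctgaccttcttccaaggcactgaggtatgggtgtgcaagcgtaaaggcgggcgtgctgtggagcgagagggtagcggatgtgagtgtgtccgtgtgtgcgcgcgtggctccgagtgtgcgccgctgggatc
Cxcr4, chr1:128592300-128592449, minus strand: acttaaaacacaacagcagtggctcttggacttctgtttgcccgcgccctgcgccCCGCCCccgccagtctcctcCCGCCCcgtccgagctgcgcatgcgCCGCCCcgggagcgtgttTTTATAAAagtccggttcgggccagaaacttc
Ackr3, chr1:90203830-90203979, plus strand: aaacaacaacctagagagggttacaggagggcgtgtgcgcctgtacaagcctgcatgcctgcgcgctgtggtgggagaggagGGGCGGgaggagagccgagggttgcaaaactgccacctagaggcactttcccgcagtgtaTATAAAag

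Both receptor promoters held a TATAAA match and neither ligand promoter did. In Cxcr4 there were 2 overlapping matches, 1 on each strand, starting at positions -32 and -30 relative to the start. In Ackr3 there was 1 match, at position -8. Of all 32851 RefSeq promoters of the same length, 7.57% held this motif. GGGCGG was found 4 times in Cxcl12, 3 times in Cxcr4, 1 time in Ackr3 and 0 times in Cxcl14, and 28.6% of all promoters held it. All 4 promoters were richer in G and C than the median promoter (54%), from 58% for Ackr3 to 72.7% for Cxcl12. These matches describe the letters of the windows, and binding of any factor was not measured. Use of the matched sites, and a link between them and the levels of the genes, was not tested.

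The values are FPKM, a measure of reads scaled to the length of the gene's transcripts and to the size of the library. The sum of FPKM was not constant over the 9 libraries, from 793249 in base library 2 to 1315981 in base library 1. Comparisons between libraries therefore depend in part on the scaling. In each library, 16006 to 17281 genes reached at least 1 FPKM. Read counts were not among the values, so the depth behind each level is unknown. Libraries correlated with each other across genes at 0.970 to 0.974 within control vault, 0.959 to 0.980 within MCAGF8 vault and 0.904 to 0.946 within control base. The base group was therefore the least uniform, and it did not match its label evenly. Summed FPKM of 12 cartilage genes was 822 and 1430.4 in base libraries 1 and 3, below every vault library, and 9667 in base library 2. Base library 2 was also the lowest of its group in FPKM for all 4 chemokine genes. It had the lowest FPKM sum of the 9 libraries as well. Relative to the FPKM sums, base library 2 was the lowest of its group only for Cxcr4, so its low levels depended on the scaling. Differences that rest on base library 2 are given with and without it. In bulk tissue, fewer cells of a type and less RNA per cell cannot be told apart.

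Cxcl12 was the most abundant of these genes in control vault and control base, and its deposited FPKM overlapped between all groups. In control vault it was measured at 232, 189.9 and 264 FPKM in libraries 1, 2 and 3 (229 ± 37.3, SD, n = 3). In MCAGF8 vault it was 307, 372 and 228 FPKM (303 ± 72.2, SD, n = 3). MCAGF8 library 3 lay inside the control range and the other 2 lay above it. In control base the levels were 286, 198 and 339 FPKM (274 ± 71.3, SD, n = 3), a spread that covered most of both vault groups. The gene ranked 698th, 430th and 594th by mean FPKM in control vault, MCAGF8 vault and control base, among 27685 genes with a value above 0. It was thus above 97.5%, 98.4% and 97.9% of them.

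Cxcl14, the ligand with the wider range, was higher in MCAGF8 vault and far lower in the base than in either vault. Control vault libraries held 94.1, 96.3 and 108 FPKM (99.6 ± 7.70, SD, n = 3). MCAGF8 libraries held 328, 436 and 248 FPKM (337 ± 94.6, SD, n = 3), so that the lowest of them was well above the highest control value. Base libraries held 9.87, 5.96 and 14.1 FPKM (9.99 ± 4.09, SD, n = 3). No group overlapped another for this gene. By mean FPKM it ranked 374th in MCAGF8 vault, 1812th in control vault and 10930th in control base, which placed it above 98.6%, 93.5% and 60.5% of the genes.

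Cxcr4, the signaling receptor, was lower in MCAGF8 vault than in control vault in every library. Its levels were 25.0, 25.2 and 28.9 FPKM in control vault (26.4 ± 2.19, SD, n = 3). In MCAGF8 vault they were 18.4, 14.7 and 16.7 FPKM (16.6 ± 1.82, SD, n = 3), and the groups did not overlap. In control base they were 33.3, 17.1 and 39.9 FPKM (30.1 ± 11.7, SD, n = 3). Base library 2 lay within the MCAGF8 range, while base libraries 1 and 3 lay above every vault library. Cxcr4 had the lowest mean of these genes in both vault groups, above 76.8% of genes in control vault and 69.3% in MCAGF8 vault.

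Ackr3, the scavenging receptor, was more abundant than Cxcr4 in each of the 9 libraries and was also lower in MCAGF8 vault. Control vault libraries had 46.7, 60.1 and 55.9 FPKM (54.2 ± 6.87, SD, n = 3). MCAGF8 libraries had 32.8, 38.2 and 29.6 FPKM (33.5 ± 4.35, SD, n = 3), all below the lowest control library. Base libraries had 38.5, 26.5 and 52.0 FPKM (39.0 ± 12.8, SD, n = 3). These ran from below the MCAGF8 range into the control vault range, so in deposited FPKM the base could be set apart from neither.

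**Figure D1:**
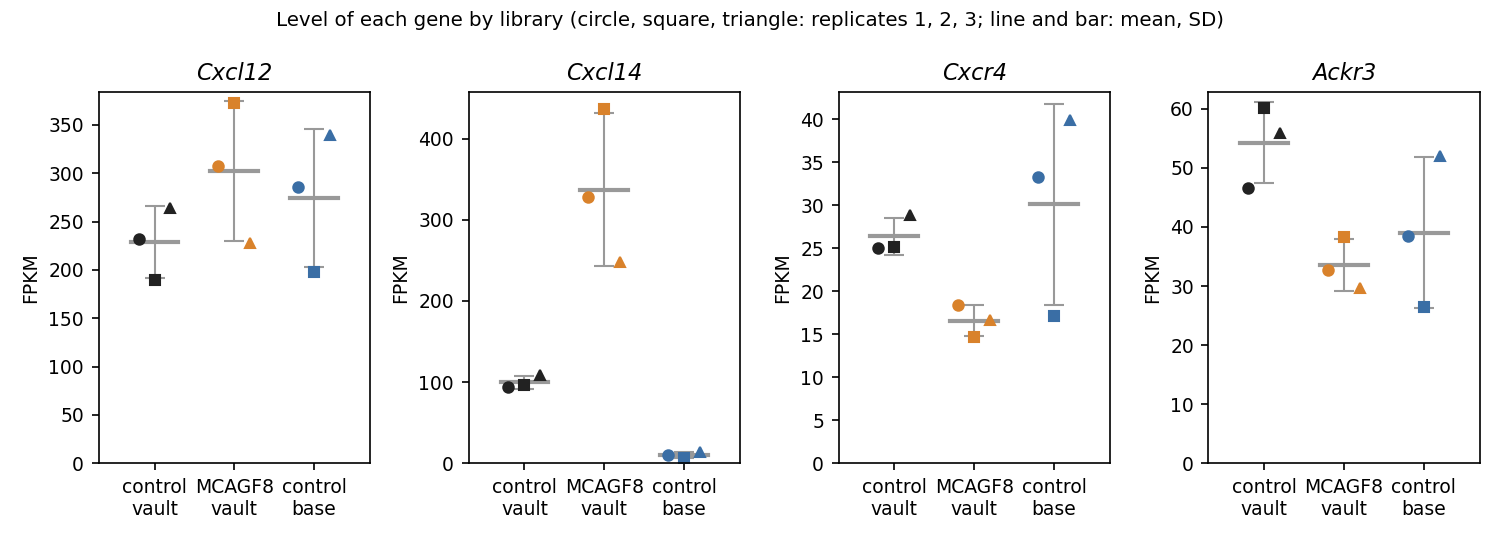
FPKM of Cxcl12, Cxcl14, Cxcr4 and Ackr3 in the 9 libraries by group, on linear axes from 0 that differ between genes, with each point a library, the horizontal line the group mean and the bar its SD. Cxcl14 falls into 3 separate bands (94.1 to 108 in control vault, 248 to 436 in MCAGF8 vault, 5.96 to 14.1 in control base). Both receptors are lower in MCAGF8 vault than in control vault, and Cxcl12 overlaps throughout in deposited FPKM.

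The order of the 4 levels differed between tissues. In control vault it was Cxcl12, Cxcl14, Ackr3 and Cxcr4, and neighbors in that order did not overlap. In MCAGF8 vault Cxcl14 had the highest mean, but its range overlapped that of Cxcl12, so these neighbors did not differ beyond their spread between libraries, although within each library Cxcl14 was slightly higher, whereas Ackr3 and Cxcr4 were well below and apart. In control base the order was Cxcl12, Ackr3, Cxcr4 and Cxcl14. There the ranges of Ackr3 and Cxcr4 overlapped between libraries, although within each library Ackr3 was higher, and Cxcl14 lay below both receptors.

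The first comparison, MCAGF8 vault against control vault, asks what ectodermal Fgf8 overexpression changed in the vault. Cxcl14 was higher by 1.71 on the log2(FPKM + 1) scale (SE 0.29), a ratio of means of 3.38. Both receptors were lower, Cxcr4 by a log2 difference of -0.64 (SE 0.28), with control 1.59 times the MCAGF8 mean, and Ackr3 by -0.68 (SE 0.24), with control 1.62 times the MCAGF8 mean. The receptor differences were close in size and in the same direction. Cxcl12 differed by 0.39 (SE 0.27), a ratio of 1.32, and the FPKM of its groups overlapped. Its difference depended on the scaling, at 0.56 (SE 0.19) with FPKM rescaled to a common sum and 0.57 (SE 0.18) after quantile normalization. The overlap depended on it too, and was absent relative to the FPKM sums of the libraries. Groups did not overlap for 3 of the 4 genes, 1 higher and 2 lower, beside 19.2% of all genes tested (9.9% higher and 9.35% lower). A gene was counted as called when its limma p was below 0.05 and stayed below 0.1 after Benjamini-Hochberg adjustment over 18714 genes. By that rule 1 of the 4 was called (Cxcl14, higher), beside 0.604% of genes (0.23% higher and 0.374% lower). These genes were picked from this contrast, so nothing is read from either count. The call for Cxcl14 was lost on leaving out any of the 6 vault libraries or base library 1, with log2 differences of 1.51 to 1.92.

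**Figure D2:**
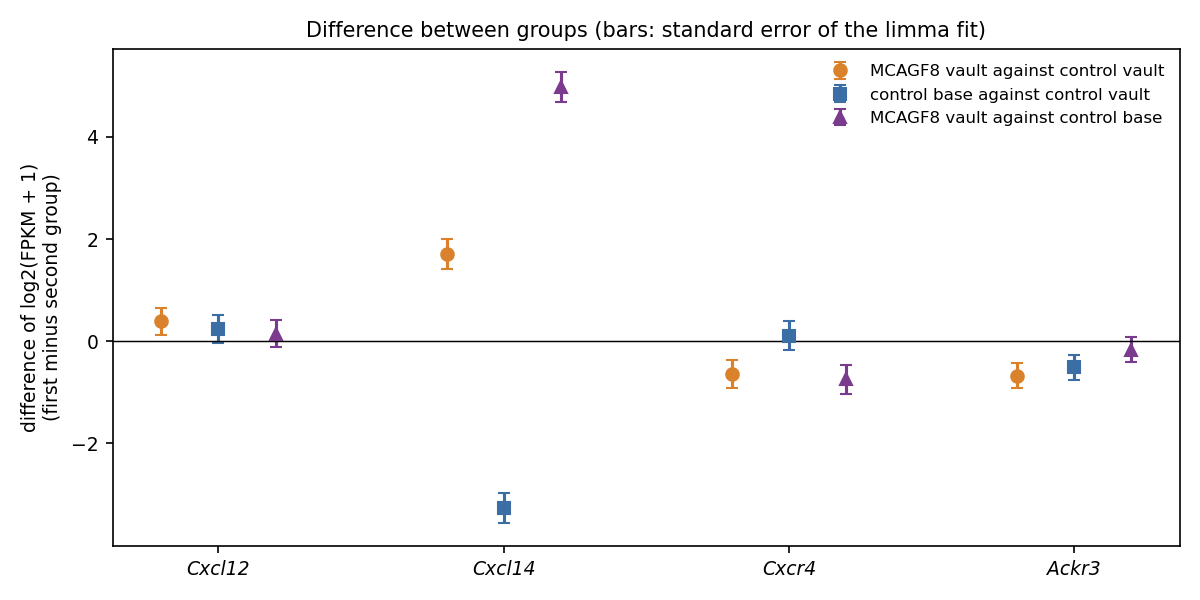
Differences in mean log2(FPKM + 1) of the 4 genes for each pair of groups, with points at the difference and bars of 1 SE from the limma fit. Cxcl14 has the widest differences (1.71 between vaults, -3.26 for base against control vault, 4.98 for MCAGF8 vault against base), both receptors lie below 0 for MCAGF8 against control vault (-0.64 and -0.68), and the differences of Cxcl12 stay between 0.15 and 0.39.

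The second comparison set control base, labeled as cartilage, against control vault. The summed FPKM of cartilage genes was lower in base libraries 1 and 3 than in any vault library. The second comparison is therefore read as one of these pools and not of cartilage with vault. Single genes did not all follow the sum. In base libraries 1 and 3, Comp was higher than in any vault library and Matn3 lay within the vault range. Hapln1 in base library 1 was above control vault library 3. Cxcl14 was lower in the base by a log2 difference of -3.26 (SE 0.29), with the vault mean 9.97 times that of the base. Without base library 2 the difference was -2.97. The other genes had overlapping groups in deposited FPKM. Cxcl12 differed by 0.24 (SE 0.27), Cxcr4 by 0.11 (SE 0.28) and Ackr3 by -0.51 (SE 0.24), where the vault mean of Ackr3 was 1.39 times that of the base. The sign for Cxcr4 depended on single base libraries, at 0.46 without library 2, -0.13 without library 3 and -0.0068 without library 1. For Cxcl12 the difference was 0.46 without base library 2, 0.071 without base library 3 and 0.11 without control vault library 2. For Ackr3 it was -0.26 without base library 2. Non-overlap was seen for 1 of the 4 genes, beside 15.5% of all genes (8.86% higher and 6.69% lower in the base), and the same gene was called, beside 3.06% of genes (1.85% higher and 1.21% lower).

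The third comparison, MCAGF8 vault against control base, was made by the design to set the altered vault beside cartilage, but with the cartilage sums given above a distance from this base group is not a distance from cartilage. It shares its libraries with the other comparisons, so its values are set beside theirs rather than counted again. Cxcl14 was higher in MCAGF8 vault by 4.98 (SE 0.29), a ratio of means of 33.7, and by 4.68 without base library 2. With respect to this ligand, the MCAGF8 vault was farther from the base than the control vault was. Cxcr4 was lower than in the base by a log2 difference of -0.75 (SE 0.28), with the base mean 1.82 times the MCAGF8 mean, but base library 2 fell inside the MCAGF8 range. Without that library, the base pool with the highest cartilage sum, the difference was -1.10 (SE 0.18). Cxcr4 met the rule for a call there and in no other of the 16 alternatives. Nothing is read from that call, since the gene was picked from these differences. Cxcl12 differed by 0.15 (SE 0.27) and by -0.07 without base library 2, and Ackr3 by -0.17 (SE 0.24) and -0.41. The sign for Ackr3 turned when base library 3 was left out (0.06) or FPKM were rescaled to a common sum (0.04, and -0.07 relative to the median of all genes under that scaling), and the sign for Cxcl12 turned without MCAGF8 library 2 as well (-0.017). Only Cxcl14 had groups that did not overlap (1 of 4), beside 21.9% of all genes (8.91% higher and 13.0% lower in MCAGF8 vault), and only it was called, beside 8.39% of genes (2.98% higher and 5.41% lower).

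Ratios within a library do not depend on how that library was scaled. They are built from genes picked on differences between these groups, so their separation is a description and no support for a difference. Cxcl14 per Cxcl12 was 0.406, 0.507 and 0.410 in control vault (0.441 ± 0.0572, SD, n = 3). In MCAGF8 vault it was 1.07, 1.17 and 1.09 (1.11 ± 0.0560, SD, n = 3). In control base it was 0.0345, 0.0301 and 0.0417 (0.0354 ± 0.00583, SD, n = 3). Cxcl14 was thus below the Cxcl12 level in each control library and slightly above it in each MCAGF8 library. Within MCAGF8 vault the ratio varied less, relative to its mean, than either level, and library 2 was highest and library 3 lowest for both ligands.

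Cxcl12 per Cxcr4, the ligand relative to its signaling receptor, was 9.25, 7.54 and 9.14 in control vault (8.65 ± 0.957, SD, n = 3). It was 16.7, 25.3 and 13.7 in MCAGF8 vault (18.6 ± 6.0, SD, n = 3). It was 8.58, 11.6 and 8.51 in control base (9.56 ± 1.76, SD, n = 3). Every MCAGF8 library exceeded all 6 control libraries, from both tissues, on this ratio, and nothing is read from that separation. Cxcl12 per Ackr3 was 4.96, 3.16 and 4.73 in control vault and 9.37, 9.74 and 7.70 in MCAGF8 vault (4.28 ± 0.980 and 8.94 ± 1.09, SD, n = 3 each). Control base lay between them at 7.43, 7.48 and 6.52 (7.15 ± 0.540, SD, n = 3).

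The balance between the receptors was similar in the vaults. Ackr3 per Cxcr4 was 1.86, 2.39 and 1.93 in control vault (2.06 ± 0.284, SD, n = 3) and 1.79, 2.60 and 1.78 in MCAGF8 vault (2.05 ± 0.469, SD, n = 3), and these ranges overlapped almost fully. In control base it was 1.15, 1.55 and 1.30 (1.34 ± 0.199, SD, n = 3), below all vault libraries.

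**Figure D3:**
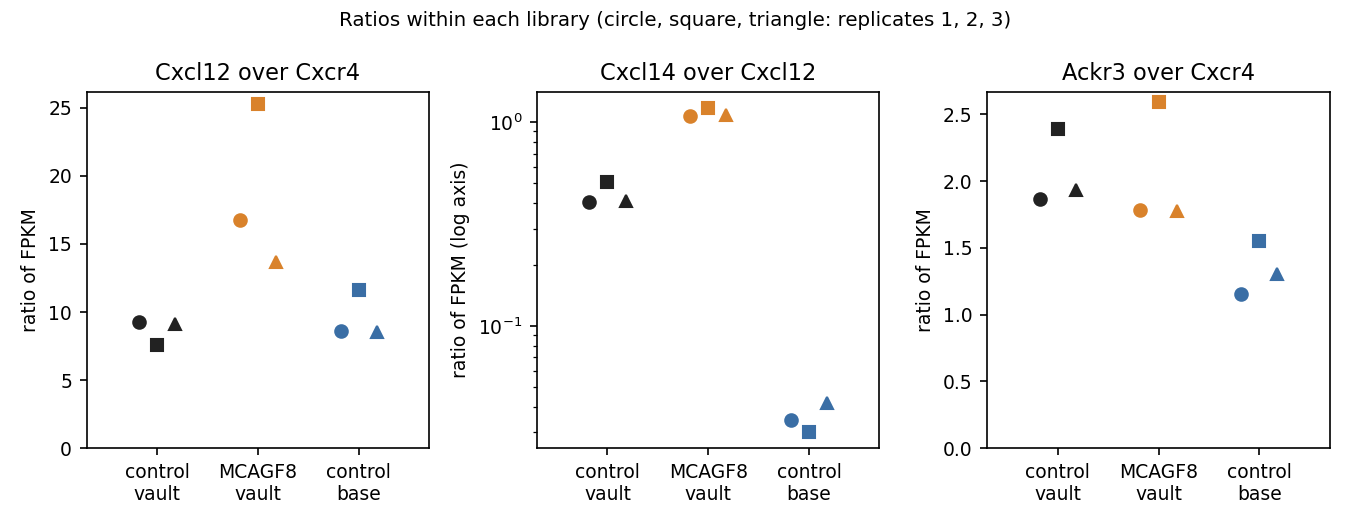
Ratios of FPKM within each library for Cxcl12 over Cxcr4, Cxcl14 over Cxcl12 (log axis) and Ackr3 over Cxcr4, with each point a library and groups side by side. Cxcl12 per Cxcr4 is 13.7 to 25.3 in MCAGF8 vault and 7.54 to 11.6 in the other groups, while Ackr3 per Cxcr4 covers nearly the same range in both vaults.

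Some markers of other cell types moved with these genes between the groups, and their part in the differences was not tested beyond the values given here. Over all genes tested, 9.9% were higher and 9.35% lower in MCAGF8 vault than in control vault without overlap. Calls were made for 0.604% (0.23% higher and 0.374% lower). Summed FPKM of 10 epidermal genes, markers of the skin that had been peeled away, was 46.6, 103 and 30.5 in control vault and 431, 403 and 954 in MCAGF8 vault. The groups did not overlap in this sum or for 6 of the 10 genes, and 2 were called. Within MCAGF8 vault, library 3 had the highest epidermal sum and the lowest Cxcl14. Base libraries 1 and 3 had epidermal sums of 521 and 717, within the MCAGF8 range, with Cxcl14 at 9.87 and 14.1 FPKM, and base library 2 was lowest of its group for both. The sums were made up differently, with Krt15 at 274 and 300 FPKM in base libraries 1 and 3 and 64.4 to 112 in MCAGF8 vault. Krt5 was at 39.2 and 117 in those base libraries and 139 to 252 in MCAGF8 vault. Like sums here do not mean like epithelium. The sum of dermal condensate genes was 598, 538 and 842 in control vault and 1076, 1532 and 875 in MCAGF8 vault, and its highest and lowest MCAGF8 libraries were those of Cxcl14. Crabp1 carried most of that sum, and without it (a choice made after its values were seen) the sums of the other 7 genes overlapped, at 253, 242 and 273 in control vault and 301, 348 and 237 in MCAGF8 vault. Of the 8 genes, 3 were higher in MCAGF8 vault without overlap and 1, Ptch1, was lower, at 24.2 to 31.4 FPKM in control vault and at most 17.5 in MCAGF8 vault.

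For the receptors, further lists of cell type markers were compared in the same way, beside the same shares over all genes. Endothelial genes, whose cells can express either receptor, summed to 464, 544 and 505 in control vault and 593, 691 and 550.3 in MCAGF8 vault, so the sums were higher where the receptors were lower, without overlap, as were 3 of the 10 genes taken singly. Macrophage genes summed to 354, 448 and 432 in control vault and 336, 510.0 and 328 in MCAGF8 vault, with overlap. Skeletal muscle genes were lower in the same direction as Cxcr4, at 920, 5815 and 1577 in control vault and 21.5, 48.3 and 193 in MCAGF8 vault, and 8 of 10 were called lower. Within control vault the library with the highest muscle sum had a Cxcr4 level of 25.2 FPKM, close to the 25.0 of the library with the lowest sum. In control base the muscle sums were 11307, 1755 and 4732 beside Cxcr4 at 33.3, 17.1 and 39.9 FPKM, so library 2 was lowest for both. The part of muscle in the Cxcr4 levels was not tested. Osteoblast genes summed to 3171, 1383 and 3398 in control vault and 165, 293 and 144 in MCAGF8 vault, with 7 of 12 called lower, and Bglap2 (osteocalcin) was listed at 0 in each MCAGF8 library. Cartilage genes summed to 2059, 2716 and 1973 in control vault and 2720, 4496 and 4957 in MCAGF8 vault. Of these 12 genes, 11 were higher by their difference, 4 without overlap, and 0 were called. Pericyte genes summed to 119 to 122 in control vault and 146 to 164 in MCAGF8 vault, with 0 of 6 called. Meningeal genes, from cells known to make Cxcl12, summed to 2134, 2132 and 2505 in control vault and 2136, 2263 and 2016 in MCAGF8 vault. They overlapped, as the deposited FPKM of Cxcl12 did. Lum (846 to 1097 FPKM over the vault libraries) and Mgp (389 to 605) carried most of these sums. Of the 10 genes, 3 were higher in MCAGF8 vault by their difference and 0 were called, with a median log2 difference of -0.13.

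Markers of other cells also differed between the base and the vaults, beside the differences of these genes there. Over all genes tested, 1.85% were called higher and 1.21% lower in base than in control vault. Neuronal genes summed to 347, 429 and 1272 in control base, above 48.9 to 103 in control vault and 61.2 to 93.0 in MCAGF8 vault, with 5 of 9 called higher in base than in control vault. Schwann cell genes summed to 71.6, 122 and 207 in base, with 3 of 6 called higher than in control vault. Their sums were 27.6 to 37.4 in control vault and 18.5 to 29.5 in MCAGF8 vault. Between the vaults, 3 of 9 neuronal genes were lower in MCAGF8 vault without overlap and 1 was called lower, with a median log2 difference of -0.54. Of 6 Schwann cell genes, 2 were lower and 1 higher without overlap and 0 were called, with a median of -0.67. Macrophage genes summed to 387, 153 and 322 in base, where 3 of 10 were called lower than in control vault. The part of these cells in the levels of Cxcl14, Cxcr4, Ackr3 and Cxcl12 was not tested.

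**Figure D4:**
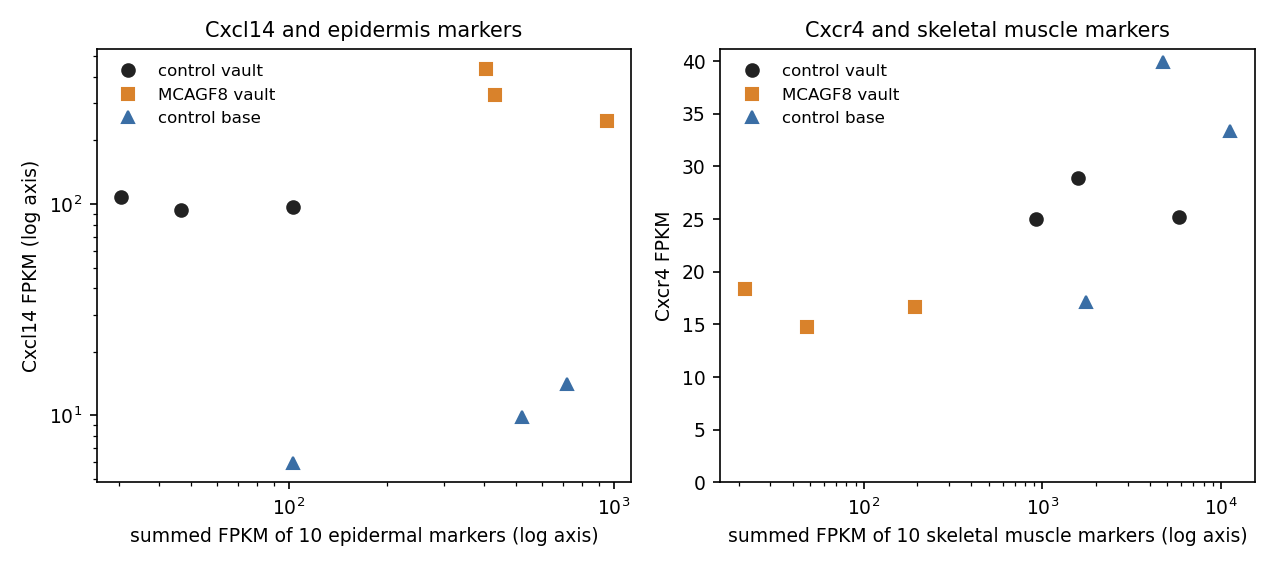
Left, Cxcl14 FPKM against the summed FPKM of 10 epidermal genes. Right, Cxcr4 FPKM against the summed FPKM of 10 skeletal muscle genes, with each point a library and all axes on a log scale but that of Cxcr4. Base libraries 1 and 3 have epidermal sums of 521 and 717 and Cxcl14 of 9.87 and 14.1, and control vault libraries have Cxcr4 of 25.0 to 28.9 and muscle sums of 920 to 5815. Base libraries have Cxcr4 of 17.1 to 39.9 and muscle sums of 1755 to 11307.

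The genes whose levels followed each member most closely were found by Pearson's r of log2 values over the 9 libraries, among 12934 genes with a mean of at least 5 FPKM. The libraries share groups and scaling, so these values are a description. Cxcl14 was tracked most closely by Adgre5 (r = 0.993), which encodes the adhesion receptor CD97, by Stat6 (0.986) and by Sdc2 (0.985), which encodes a heparan sulfate proteoglycan. The range of Adgre5 was far narrower than that of Cxcl14, with means of 45.0, 56.1 and 32.1 FPKM in control vault, MCAGF8 vault and base. Ackr3 was tracked by Gramd3 (0.974), Gadd45g (0.965) and Sar1a (0.957). Gadd45g, a stress-inducible growth arrest gene, had means of 42.1, 25.0 and 30.2 FPKM in the same order. Cxcr4 was followed by Chac2 (0.973), Anapc15 (0.972) and Pcmt1 (0.965), and Cxcl12 by Gpr45 (0.959), Ehmt2 (0.958) and Ypel1 (0.955). None of the 4 genes appeared among the nearest neighbors of another.

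Among the other chemokine ligands and receptors, the 4 genes had few counterparts at these levels. Of 59 further family genes listed, 28 passed the filter of a mean of at least 0.5 FPKM and 31 did not. The most abundant were Pf4, a platelet and macrophage chemokine, at a mean of 60.9 FPKM over the 9 libraries, and Cx3cr1, the fractalkine receptor of macrophages and microglia, at 18.5 FPKM. Ccl27a was at 15.2 FPKM, which is uncertain because near-identical copies of it exist in the mouse genome. Ccl9 and Cxcl16 stood at 7.94 and 7.50 FPKM. In MCAGF8 against control vault, 0 of the 28 were called by limma and 3 had an unadjusted p under 0.05, beside 0.604% and 6.34% of all genes. With so low a share of calls, 0 of 28 says little about the family. The median log2 difference of the 28 was -0.13, with 11 above 0 and 17 below, beside -0.01 over all genes.

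Those 3 genes did not pass the adjusted threshold. Ackr4, which encodes a scavenger of CCL19, CCL21 and CCL25, was at 3.14 ± 0.699 FPKM in control vault and 0.990 ± 0.293 in MCAGF8 vault (SD, n = 3 each). Its log2 difference was -1.05 (limma adjusted p = 0.180), and it was called only without base library 2 (adjusted p = 0.0945). The monocyte chemokine gene Ccl7 differed by -1.01 (adjusted p = 0.766) and Cx3cl1, which encodes fractalkine, by 0.74 (adjusted p = 0.750).

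Against control base, 4 of the 28 were called in MCAGF8 vault, 1 higher and 3 lower, beside 8.39% of all genes (2.98% higher and 5.41% lower). Cx3cr1 was higher, at 23.6 ± 4.61 against 12.7 ± 2.57 FPKM (SD, n = 3 each), a log2 difference of 0.85 (SE 0.21, limma adjusted p = 0.0534). Macrophage markers were higher in the same comparison, 10 of 10 by their difference and 4 by a call, with a median log2 difference of 0.66, and their part in the Cx3cr1 difference was not tested. Ccl11, the eosinophil chemokine eotaxin, was at 1.67 ± 1.53 in MCAGF8 vault and 14.6 ± 12.6 FPKM in base, a difference of -2.34 (SE 0.62, adjusted p = 0.0669). Cxcl13, the B-cell chemokine, was at 0.130 ± 0.0616 and 3.13 ± 3.32 FPKM, a difference of -1.58 (SE 0.45, adjusted p = 0.0855). Ackr4 differed by -0.83 (SE 0.25, adjusted p = 0.0959). The median over the 28 was -0.31 beside -0.07 over all genes. Each of these calls was lost without some single libraries. That of Cx3cr1 was lost without any 1 of the MCAGF8 libraries (adjusted p up to 0.169), that of Cxcl13 without any 1 of the 6 vault libraries (up to 0.232), and that of Ackr4 without any library but base library 2 (up to 0.282). The call of Ccl11 was lost without control vault library 1 or 3, MCAGF8 library 1 or 2, or base library 1 or 3 (up to 0.236). In base against control vault 0 of the 28 were called by limma (3.06% of all genes were), and 5 had an unadjusted p under 0.05 (12.8% of all genes did). The median difference there was 0.27 beside 0.07 over all genes.

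**Figure D5:**
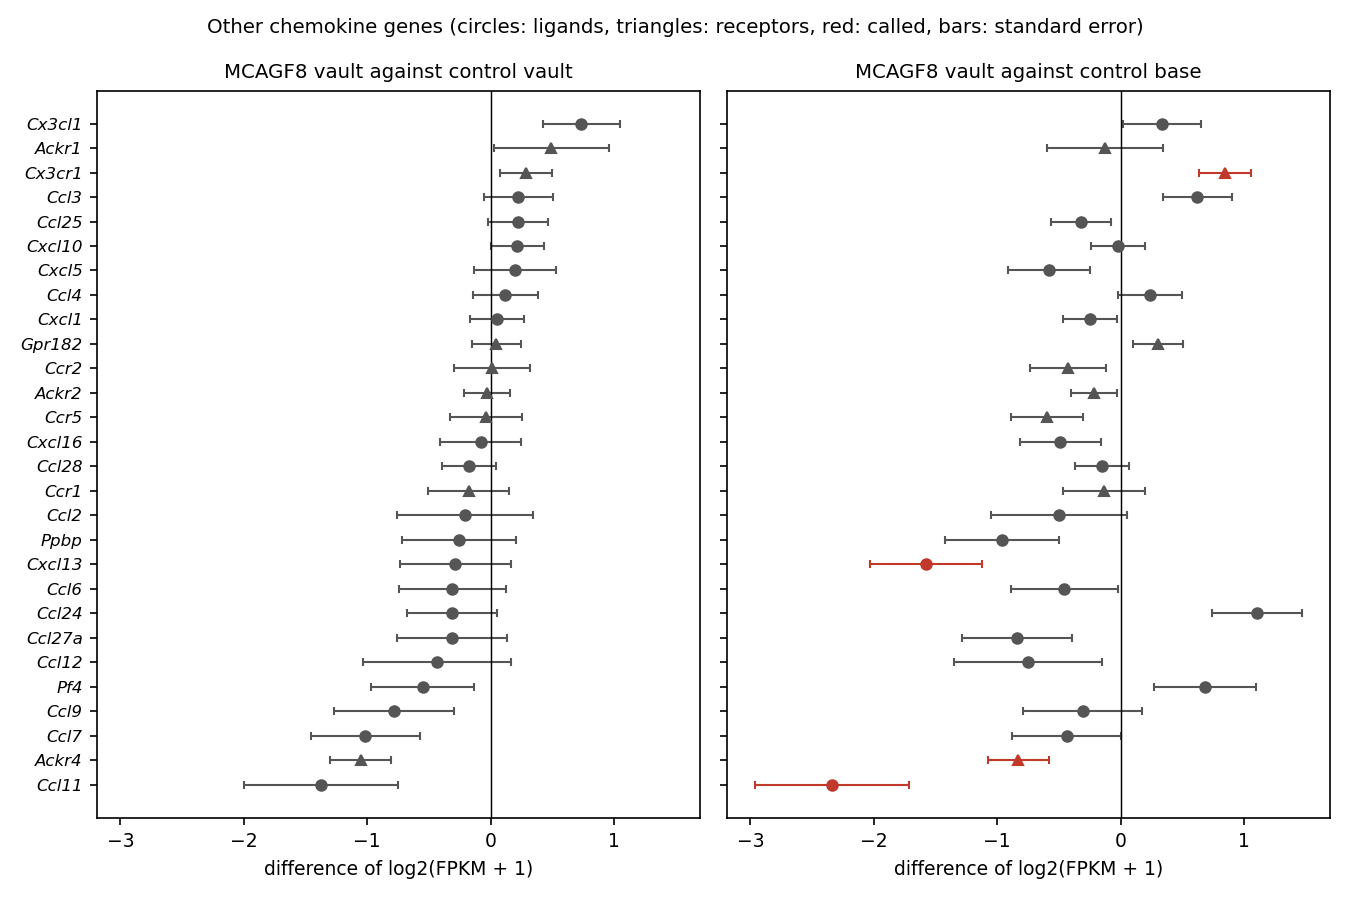
Differences in mean log2(FPKM + 1) of the 28 other chemokine ligand and receptor genes tested, for MCAGF8 vault against control vault and against control base, with bars of 1 SE and called genes in red. None is called between the vaults, and Cx3cr1 (0.85), Ccl11 (-2.34), Cxcl13 (-1.58) and Ackr4 (-0.83) are called against the base.

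A list of 27 genes of the CXCL12 pathway, with signal transducers, proteases that cleave CXCL12, regulators and further ligands of the receptors, was examined alongside. Of 24 tested, 0 were called between the vaults by limma and 0 had an unadjusted p under 0.05, beside 0.604% and 6.34% of all genes. The median log2 difference of the 24 was 0.13. With so low a share of calls, 0 of 24 called says little about the list. Foxc2 was on the list and was not analysed here. Penk, the precursor of enkephalins, opioid peptides that ACKR3 also takes up, was higher in control base than in control vault. Its levels were 329 ± 71.4 and 110.2 ± 38.3 FPKM (SD, n = 3 each), a log2 difference of 1.60 (SE 0.30, limma adjusted p = 0.0361). That was the 1 called gene of 24 in this comparison (3.06% of all genes were called), where 3 had an unadjusted p under 0.05, and the call was lost without control vault library 1 (adjusted p = 0.144) or 2 (0.135).

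Against base, MCAGF8 vault had 3 called genes of 24, 1 lower and 2 higher, beside 8.39% of all genes, and 6 had an unadjusted p under 0.05, beside 19.6% of all genes. Penk was lower by a difference of -1.55 (SE 0.30, limma adjusted p = 0.0185), and this call held in all 16 alternatives. Mmp2 and Mmp14 encode matrix metalloproteinases that can cleave CXCL12 at its amino end. Mmp2 was at 407 ± 118 against 213 ± 49.0 FPKM, a difference of 0.92 (SE 0.26, adjusted p = 0.0824). Mmp14 was at 320.2 ± 71.0 against 175 ± 42.2 FPKM, a difference of 0.87 (SE 0.23, adjusted p = 0.0677; SD, n = 3 for each level). When a library was left out, the Mmp2 call held only without base library 2, and the Mmp14 call was lost without any vault library or base library 1 (adjusted p up to 0.197). The median over the 24 genes was 0.28 in this comparison and -0.19 in base against control vault.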

How the data were processed

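RNA from pools of 3 tissue samples was sequenced as stranded mRNA libraries (single-end reads, HiSeq4000). The authors mapped reads with gSNAP and deposited FPKM per gene from Cufflinks. The sources used here do not give the genome build or tool versions. The table held 43611 rows. The 63 repeated identifiers were summed to 43548, and 9 genes with 17 placeholder cells were left out. Values were taken as log2(FPKM + 1), and 18714 genes with a mean of at least 0.5 FPKM were fitted by group means with limma 3.58.1 in R 4.3.3 (trended variance, two-sided). Calls needed p below 0.05 and, after Benjamini-Hochberg adjustment, below 0.1. A log2(FPKM + 1) difference understates the change of low genes. The 4 genes and all gene lists were chosen with earlier results of these data known. Genes named were the members, their 3 nearest by r, the 5 most abundant family genes, and list genes that were called or, between the vaults, had an unadjusted p under 0.05. Alternatives were another pseudocount, filter, scaling, set of libraries, a replicate block, and each library left out.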

Additional observations from a re-analysis of the deposited data

How the results depend on the processing

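For the 4 genes, 186 of 192 values kept their direction under the 16 alternatives, and the 6 that did not are differences involving control base already given. Between the vaults, Cxcl14 stayed at 1.51 to 1.92, Cxcr4 at -0.71 to -0.48, Ackr3 at -0.78 to -0.51 and Cxcl12 at 0.22 to 0.58. As a description only, the call of Cxcl14 between the vaults held in 7 of 16 alternatives and its calls against base in 16 of 16. Between the vaults it was lost with no filter, with the replicate block and in 7 of 9 fits without 1 library.

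Counts of all genes called moved more. Between the vaults 113 genes were called, and 191 with a pseudocount of 0.1, 66 with no filter, 71 at a mean of at least 5 FPKM, 174 with only the 6 libraries compared, and 11 to 231 without 1 library. For base against control vault 573 were called, and 291 at a mean of at least 5 FPKM, 108 with 6 libraries and 132 to 1322 without 1 library. For MCAGF8 vault against base 1571 were called, and 834, 875 and 559 to 4580 under the same changes. Of the genes called, 347 of 573 were higher in base than in control vault, and 236 of 626 after quantile normalization. Against base, 558 of 1571 were higher in MCAGF8 vault, 1153 of 1963 after quantile normalization and 776 of 1605 after rescaling. Rescaling to a common sum moved the median log2 difference of all genes by 0.14 between the vaults and by 0.18 for MCAGF8 vault against base, and quantile normalization by 0.15 for the latter and by -0.11 for base against control vault. Relative to that median, Cxcl14, Cxcr4, Ackr3 and Cxcl12 kept their direction under both scalings in each comparison.

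Of the 28 chemokine family genes, 0 to 1 were called between the vaults without 1 library. For base against control vault 1 was called with a pseudocount of 0.1, 1 after quantile normalization, 2 after rescaling and 0 to 3 without 1 library. Against base the 4 calls became 2 at a mean of at least 5 FPKM, 0 with 6 libraries and 0 to 9 without 1 library. Of the CXCL12 pathway list, the 1 call for base against control vault became 2 with no filter, 0 with 6 libraries and 0 to 1 without 1 library, and the 3 calls against base became 7 after quantile normalization, 5 after rescaling, 1 with 6 libraries and 1 to 5 without 1 library. The cause of these changes was not tested.

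Replicate numbers did not pair the libraries, since deviations of same-numbered libraries from their group means correlated at -0.55 to 0.37. With the replicate block 19, 234 and 918 genes were called in the 3 comparisons in the order above, with 0 family calls against base, and 0 and 1 of the pathway list in the comparisons with base. The number of libraries, 3 a group, limits precision, and depth could not be assessed.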
